A study of Mus musculus with 4 samples.

Results

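The 37 genes described here are the p53 factor Trp53, its regulators Mdm2, Mdm4 and Ppm1d, and genes that p53 is known to activate in cell cycle arrest, cell death, DNA repair and metabolism. They were chosen by name, and all 37 were found by their gene symbol among the 40092 genes of the count table. All 37 also passed the filter on low counts, which kept 16661 genes. The libraries are RNA-seq of AT2 cells, which make surfactant and renew the alveolar epithelium, sorted by FACS for the GFP of a lineage reporter. Cells were collected on day 14 after lung injury with bleomycin, and each group has 2 libraries. Control mice (Ctrl) were Alkbh5 flox/+ and knockout mice (A5-CKO) were their Alkbh5 flox/flox littermates. Both groups carried Sftpc-CreERT2 and Rosa26-mTmG, were kept on a C57BL/6 background, and received tamoxifen and then bleomycin. The Sftpc promoter directs Cre to AT2 cells, so that Ctrl AT2 cells carry Cre activity and a floxed Alkbh5 allele too, and every library is from injured lung. No uninjured library was analysed here. The comparison addresses how loss of the RNA demethylase Alkbh5 in AT2 cells changes transcripts during repair.

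p53 is a transcription factor that is held low by the ubiquitin ligase Mdm2 and its partner Mdm4 and is stabilised, mainly at the protein level, when DNA is damaged. It then binds response elements made of paired half-sites and activates genes for arrest, repair and apoptosis, and also Mdm2 itself, which closes a negative feedback loop. Bleomycin breaks DNA strands, and p53 target genes are known to be active in the transitional cells through which AT2 cells pass on the way to AT1 cells.

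The libraries held from 18144865 to 20811757 counts. Values are given as normalized counts (CPM), in the order Ctrl 1, Ctrl 2, A5-CKO 1 and A5-CKO 2 unless named. A count of 3, used as the floor for detection, equals 0.128 to 0.177 CPM and covers counting error only. Alkbh5, the targeted gene, had 81.7, 152, 19.3 and 36.6 CPM, lower in both A5-CKO libraries, with an Alkbh5 log2 fold change of -2.06 (standard error 0.46). By the quasi-likelihood test of edgeR its adjusted p was 0.528, and by DESeq2 it was 0.0248 on the same genes. The labelled cell type was present in every library, since Sftpc had 15500, 16400, 10300 and 7860 CPM. All 10 AT2 markers were lower in A5-CKO by the fitted value, where 49.1% of all genes tested were higher. Of these markers, 7 were lower in both A5-CKO libraries (23.5% of all genes). Markers of other cells were summed in each library. The 8 fibroblast markers summed to 425, 156, 98.8 and 1100 CPM, the 13 macrophage and leukocyte markers to 719, 397, 336 and 952, and the 6 plasma cell markers to 2170, 359, 493 and 2300, so Ctrl 1 and A5-CKO 2 stood above Ctrl 2 and A5-CKO 1 in all 3 lists. The 4 basal markers, at 4.91, 2.91, 3.08 and 5.30 CPM, shared this order. Other lists did not. The 7 endothelial markers summed to 137, 213, 98.0 and 212 CPM and the 10 AT1 markers to 1680, 1470, 1770 and 1560. The 5 club markers summed to 2880, 2750, 1990 and 1340 CPM and the 5 ciliated markers to 161, 151, 142 and 52.6. No fibroblast, macrophage or plasma cell marker was at 0 in any library. The 19 early response and dissociation stress genes summed to 5140, 8430, 14100 and 4720 CPM, highest in A5-CKO 1. Xist was detected in all 4 libraries but not evenly, with 149, 123, 805 and 390 CPM. It was higher in both A5-CKO libraries, at a log2 fold change of 2.14 (standard error 0.44, edgeR adjusted p = 0.528). With the GC content and length correction described at the end, the value was 1.20. The reason for this difference was not tested. The Y-linked Ddx3y, Uty and Kdm5d had 0 counts and Eif2s3y had 2 counts, all in Ctrl 2. In bulk RNA, fewer cells of a type and less RNA per cell cannot be told apart.

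The p53 response elements of these genes are part of what links them, so the RefSeq promoter windows (GRCm38.p6, 250 bases before to 50 bases after an annotated start) were searched for the 10-base p53 half-site. The half-site reads the same on both strands, so a scan of either covers both. Of the 37 genes, 29 had a window, with 36 windows in all. The match was by letters alone. A half-site was found in 12 of these 36 windows (33.3%), in 11 genes, against 8.36% of the 32851 windows of all genes. A pair of half-sites at most 13 bases apart was found in 24 windows of all genes (0.0731%), and Cdkn1a held 1 of them, with a spacer of 12 bases. The whole Cdkn1a window is shown because it holds that pair, and shorter stretches are shown for genes on which the results below turn, with the half-sites in capitals.
Cdkn1a, chr17:29090729-29091028, plus strand: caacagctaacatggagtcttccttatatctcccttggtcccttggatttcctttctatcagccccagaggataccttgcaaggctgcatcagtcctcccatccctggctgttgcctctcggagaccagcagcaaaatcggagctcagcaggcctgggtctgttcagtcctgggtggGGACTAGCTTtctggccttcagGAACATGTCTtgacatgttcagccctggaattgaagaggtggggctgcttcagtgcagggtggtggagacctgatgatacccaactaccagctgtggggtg
Mdm2, chr10:117710910-117710969, minus strand: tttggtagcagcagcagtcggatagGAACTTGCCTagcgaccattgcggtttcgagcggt
Ccng1, chr11:40755437-40755496, minus strand: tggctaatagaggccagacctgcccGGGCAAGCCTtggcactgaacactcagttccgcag
Polk, chr13:96519384-96519437, minus strand: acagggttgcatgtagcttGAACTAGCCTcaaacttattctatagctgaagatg
Aen, chr7:78895912-78895971, plus strand: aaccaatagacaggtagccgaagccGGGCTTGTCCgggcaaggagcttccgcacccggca
Bax, chr7:45467065-45467124, minus strand: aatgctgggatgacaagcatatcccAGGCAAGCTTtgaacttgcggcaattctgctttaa
Trp53, chr11:69580259-69580318, plus strand: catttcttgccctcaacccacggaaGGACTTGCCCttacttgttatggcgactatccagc
The other genes with a half-site were Gadd45a, Ei24, Sesn1 and Ppm1d. Of the 11, Cdkn1a, Mdm2, Ccng1, Polk and Aen had higher levels in both A5-CKO libraries, and the others overlapped between genotypes. Both A5-CKO libraries were higher for 16 of the 37 genes and for 20.3% of all genes tested. Whether a half-site went with the difference between genotypes was not tested. A match is a description of the sequence and not a measured site, and the best known Mdm2 elements lie in its first intron, outside these windows. In the Cdkn1a window, the 10 bases directly after the second marked half-site miss the pattern at 1 base and are left unmarked. The marked pair therefore need not be the element that p53 binds.

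Most of the 37 genes were higher in A5-CKO by the fitted value, but none passed the adjusted threshold in edgeR fitted without a replicate block. By the fitted log2 fold change, 27 were higher and 10 were lower in A5-CKO, where 49.1% of all genes tested were higher, and the median was 0.41 against -0.02 over all genes. Both A5-CKO libraries lay above both Ctrl libraries for 16 genes (20.3% of all genes tested did so) and below them for 2 (23.5% of all genes). At an adjusted p under 0.05 edgeR gave 0 of 37, as for all genes (0%), and the smallest adjusted p of the 37 was 0.528. At an unadjusted p under 0.05 there were 9 (9.18% of all genes), of which 8 were higher (4.48% of all genes tested) and 1 was lower (4.71% of all genes). DESeq2 with default filtering gave 12 of 37 at an unadjusted p under 0.05. The share over all genes was 6.75%, or 1827 of 27072, a set that includes genes removed by edgeR's filter on low counts. On the 16661 genes that edgeR tested, DESeq2 gave 13 of 37 and 1776 of all genes. At an adjusted p under 0.05, DESeq2 with default filtering gave 0 of 37 and 0.385% of the 15306 genes with an adjusted p. Scaling by total counts alone moved the median of all genes to 0.30 and that of the 37 genes to 0.71, with 35 higher and 2 lower and 13 at an unadjusted p under 0.05, all higher (10.2% of all genes). With 2 libraries a group, the smallest two-sided p of an exact permutation test is 0.333, and since no label says that the libraries of a group came from separate mice, the p-values measure only the spread between these libraries.

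**Figure D1:**
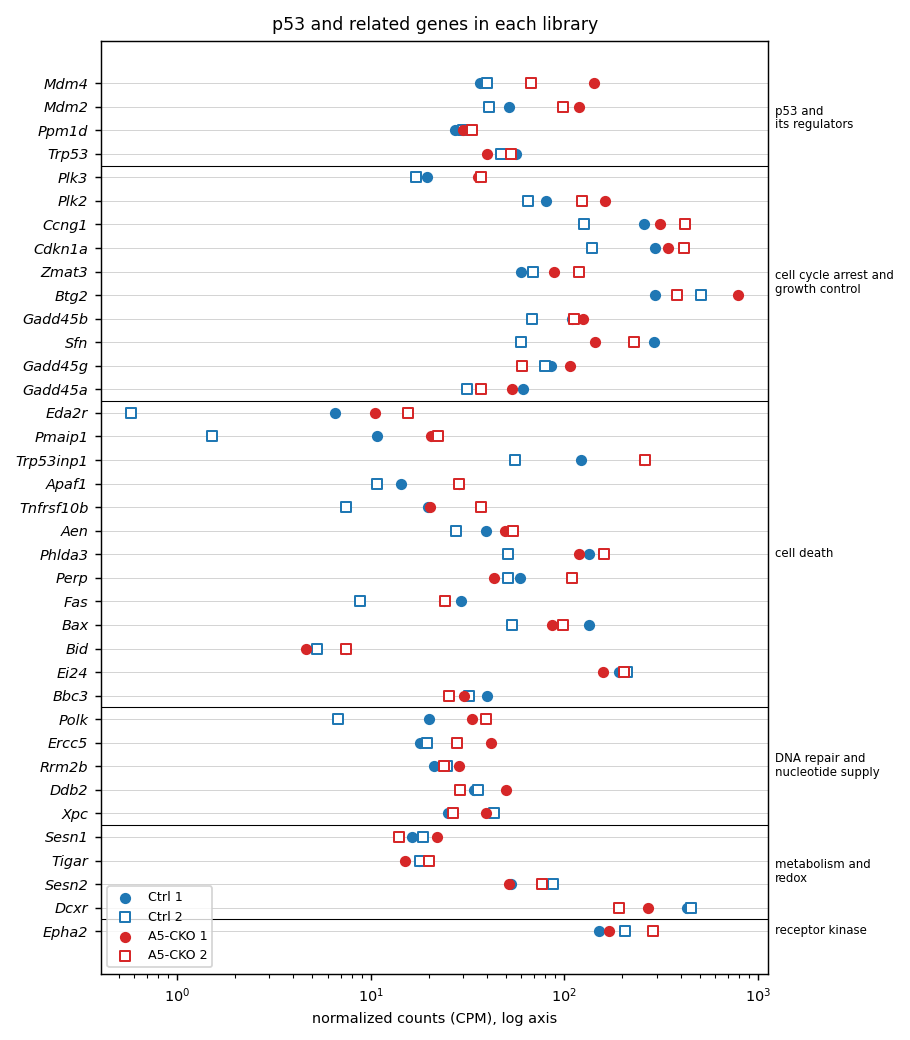
Normalized counts (CPM, log axis) of the 37 genes, grouped by role and ordered by fold change, with 1 point per library (Ctrl blue, A5-CKO red, replicate 1 filled circles, replicate 2 open squares). Mdm2, Mdm4, Plk2 and Plk3 have both red points right of both blue points, while Eda2r and Pmaip1 have Ctrl 2 far to the left, at 0.582 and 1.51 CPM.

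Among p53 and its regulators, Mdm2 and Mdm4 were higher in both A5-CKO libraries, while Trp53 and Ppm1d overlapped between genotypes. Trp53 (chromosome 11, 69580348 to 69591873, GRCm38.p6) had 56.1 and 47.0 CPM in Ctrl against 39.9 and 53.2 in A5-CKO. The genotypes overlapped, and the log2 fold change was -0.15 with a 95% interval from -0.88 to 0.59. Mdm2 (chromosome 10, 117688875 to 117710758), the main inhibitor of p53 and also its target, had 51.9 and 41.1 CPM in Ctrl against 119 and 98.9 in A5-CKO. Both A5-CKO libraries stood well above both Ctrl libraries, with a mean of 46.5 ± 7.58 (SD, n = 2) for Ctrl against 109 ± 14.3 (SD, n = 2) for A5-CKO. The log2 fold change of Mdm2 was 1.23 (standard error 0.30), a 2.34-fold difference, and its p ranked as number 74 of all genes in the edgeR model fitted across genes, unadjusted p = 0.00466 and adjusted p = 0.528. Mdm2 had an unadjusted p under 0.05 in all 13 fits of the 4 libraries, which differed in scaling, filter, tool or correction, and in all 4 fits that left out a library. Mdm4 (chromosome 1, 132986105 to 133030587), which binds p53 and blocks its activity, had 36.9 and 40.0 CPM in Ctrl against 143 and 67.4 in A5-CKO. Both A5-CKO libraries were again higher, at a log2 fold change of 1.45 (standard error 0.41) that was 0.81 without A5-CKO 1 and 1.89 without A5-CKO 2. Ppm1d, a phosphatase that switches off p53 and the kinases that activate it, had between 27.4 and 33.4 CPM in every library, with a log2 fold change of 0.14 and a 95% interval from -0.61 to 0.89.

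Among the 10 genes of arrest and growth control, 9 were higher in A5-CKO by the fitted value (49.1% of all genes tested) and 6 were higher in both libraries (20.3% of all genes). Cdkn1a (chromosome 17, 29090979 to 29100722), which encodes the cyclin-dependent kinase inhibitor p21, had 296 and 139 CPM in Ctrl against 344 and 418 in A5-CKO. Ctrl 1 was closer to A5-CKO 1 than to Ctrl 2, and the mean was 217 ± 111 (SD, n = 2) for Ctrl against 381 ± 52.2 (SD, n = 2) for A5-CKO. Its log2 fold change of 0.81 (standard error 0.43, edgeR adjusted p = 0.553) was 1.54 without Ctrl 1 and 0.34 without Ctrl 2. Ccng1, a cyclin G that recruits phosphatase to Mdm2, had 259 and 126 CPM in Ctrl against 311 and 420 in A5-CKO. It followed the order of Cdkn1a over the 4 libraries, with a log2 fold change of 0.92 (standard error 0.43) that was 1.62 without Ctrl 1 and 0.48 without Ctrl 2.

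The polo-like kinases Plk2 and Plk3, stress-induced kinases of the cell cycle, had little spread within a genotype. Plk2 had 80.8 and 64.7 CPM in Ctrl against 163 and 124 in A5-CKO, which gave a log2 fold change of 0.98 (standard error 0.31). Plk3 had 19.5 and 17.2 CPM in Ctrl against 36.0 and 37.4 in A5-CKO, which gave a log2 fold change of 1.00 (standard error 0.33). Both kept an unadjusted p under 0.05 in all 13 fits of the 4 libraries, but with a library left out Plk2 did so in 2 of 4 fits and Plk3 in 1 of 4. Both had an adjusted p of 0.528 in edgeR. The exons of Plk3 overlap those of Tctex1d4 on the opposite strand, which had at most 57 counts in a library. Zmat3, an RNA-binding p53 target, had 60.0 and 68.7 CPM in Ctrl against 89.0 and 119 in A5-CKO, with a log2 fold change of 0.69 (standard error 0.30).

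The GADD45 family, small stress proteins that bind p21 and activate p38 and JNK signalling, was mixed. Gadd45b had 110 and 68.5 CPM in Ctrl against 125 and 113 in A5-CKO. On the log2 scale this was 0.41 (standard error 0.33), and it was 0.08 without Ctrl 2. Gadd45a had 61.6 and 31.5 CPM in Ctrl against 54.0 and 37.1 in A5-CKO, and Gadd45g had 85.9 and 79.6 against 107 and 60.4, so both overlapped between genotypes. Their log2 fold changes were -0.03 and 0.02. Btg2, an antiproliferative early response gene, had 295, 509, 789 and 384 CPM and overlapped as well. Of the 37 genes, 10 were highest in A5-CKO 1, close to the share of all genes tested (27.8%), and Btg2, Mdm4, Mdm2 and Plk2 were among them. The sum of the early response genes was highest in A5-CKO 1. These include Atf3 with 118, 123, 1150 and 135 CPM and Fosb with 148, 258, 1700 and 190. The part of the early response genes in the values of the 37 genes was not tested. Sfn, the checkpoint protein 14-3-3 sigma, had 291, 59.8, 144 and 228 CPM, with a log2 fold change of 0.09 that was 1.73 without Ctrl 1 and -0.66 without Ctrl 2. Ctrl 2 was thus the lowest library and Ctrl 1 the highest.

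Of the 13 genes of cell death, 9 were higher and 4 were lower in A5-CKO by the fitted value, where 49.1% of all genes lay higher, and 6 were higher in both A5-CKO libraries (20.3% of all genes). Bax, which permeabilises mitochondria, had 134 and 53.5 CPM in Ctrl against 86.5 and 99.0 in A5-CKO, so that the Ctrl libraries lay on both sides of A5-CKO. Its log2 fold change was -0.01 with a 95% interval from -1.08 to 1.05. Bbc3, which encodes the BH3-only protein Puma, had 40.1 and 32.2 CPM in Ctrl against 30.4 and 25.3 in A5-CKO. It was lower in both A5-CKO libraries, with a log2 fold change of -0.38 and a 95% interval from -1.15 to 0.40, but at 0.03 when corrected for GC content and length as described at the end. Pmaip1, which encodes the other p53-induced BH3-only protein Noxa, had 10.8 and 1.51 CPM in Ctrl against 20.5 and 22.4 in A5-CKO. Its log2 fold change of 1.80 (standard error 0.82) rested on Ctrl 2, which had 26 counts, and it was 0.97 without that library and 3.90 without Ctrl 1. Bid, another BH3-only gene, had between 4.62 and 7.45 CPM in every library and a log2 fold change of -0.08.

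Trp53inp1, a p53-induced gene of apoptosis and autophagy, had 122 and 55.9 CPM in Ctrl against 259 and 260 in A5-CKO. The A5-CKO libraries were nearly equal and above both Ctrl libraries, at 260 ± 0.394 (SD, n = 2) against 89.1 ± 46.9 (SD, n = 2). Its log2 fold change was 1.54 (standard error 0.42, edgeR adjusted p = 0.528), and its unadjusted p was under 0.05 in all 13 fits of the 4 libraries and in all 4 fits without a library. Apaf1, the scaffold of the apoptosome, had 14.3 and 10.8 CPM in Ctrl against 28.7 in A5-CKO 1 and A5-CKO 2 alike. On the log2 scale Apaf1 differed by 1.19 (standard error 0.36), and the value lay from 0.98 to 1.49 when any library was left out. Corrected for GC content and length as described at the end, Apaf1 differed by 0.81. Aen, an apoptosis-linked nuclease, had 39.3 and 27.5 CPM in Ctrl against 49.2 and 54.6 in A5-CKO, with a log2 fold change of 0.64 (standard error 0.32), or 1.00 without Ctrl 1 and 0.38 without Ctrl 2.

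The death receptors differed widely between the Ctrl libraries. Eda2r, an X-linked receptor of the TNF family, had 6.56 and 0.582 CPM in Ctrl, from 111 and 10 counts, and 10.5 and 15.6 CPM in A5-CKO. Its log2 fold change of 1.87 (standard error 0.97) was the highest of the 37 genes, and it was 4.56 without Ctrl 1 and 0.97 without Ctrl 2. Tnfrsf10b, the TRAIL receptor, had 19.9 and 7.51 CPM in Ctrl against 20.4 and 37.1 in A5-CKO, which gave a log2 fold change of 1.07 (standard error 0.56), or 2.02 without Ctrl 1 and 0.51 without Ctrl 2. Fas had 29.2 and 8.79 CPM in Ctrl against 24.0 and 24.2 in A5-CKO, which gave a log2 fold change of 0.34 that was 1.54 without Ctrl 1 and -0.30 without Ctrl 2. In all 3 receptors Ctrl 2 was the lowest library, and in Fas Ctrl 1 was the highest. Perp, a desmosomal membrane protein, was high in A5-CKO 2 alone, with 59.0, 51.3, 43.3 and 110 CPM. Phlda3, an inhibitor of Akt, had 134, 51.2, 119 and 161 CPM and overlapped, as did Ei24, an endoplasmic reticulum protein, which had between 159 and 211 CPM.

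Of the 5 genes of DNA repair and nucleotide supply, Polk and Ercc5 had an unadjusted p under 0.05 and were higher, as were 4.48% of all genes tested. Polk, a translesion DNA polymerase, had 338, 117, 738 and 923 counts, with a mean of 13.4 ± 9.32 CPM (SD, n = 2) for Ctrl against 33.4 and 39.5 in A5-CKO. Ctrl 2 was far below the rest, and the log2 fold change of 1.44 (standard error 0.53) was 2.50 without Ctrl 1 and 0.84 without Ctrl 2. Ercc5, the endonuclease XPG of nucleotide excision repair, had a mean of 18.8 ± 1.11 CPM (SD, n = 2) for Ctrl against 42.0 and 28.0 in A5-CKO, from 305, 337, 928 and 654 counts. Both A5-CKO libraries were higher, at a log2 fold change of 0.89 (standard error 0.36) that was 0.57 without A5-CKO 1. The damage sensors of the same pathway overlapped between genotypes. Xpc had 25.1, 43.6, 39.5 and 26.7 CPM, and Ddb2 had 34.1, 35.8, 50.3 and 29.0, with log2 fold changes of -0.05 and 0.18. Rrm2b, the p53-induced subunit of ribonucleotide reductase, had between 21.3 and 28.7 CPM and a log2 fold change of 0.19.

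Of the 4 genes of metabolism and redox, 1 was higher and 3 were lower in A5-CKO by the fitted value. Over all genes tested, 49.1% were higher. Dcxr alone had an unadjusted p under 0.05 and was lower, as were 4.71% of all genes. Dcxr, which reduces dicarbonyls and L-xylulose, had 432 and 450 CPM in Ctrl against 270 and 192 in A5-CKO, means of 441 ± 12.4 (SD, n = 2) and 231 ± 54.9 (SD, n = 2). It was the lowest of the 37 genes by log2 fold change, at -0.93 (standard error 0.34, edgeR adjusted p = 0.528), a 1.91-fold difference. Corrected for GC content and transcript length, the value was -0.49 and its unadjusted p from edgeR across all genes was 0.208. The sestrins, which restrain mTORC1 under stress, overlapped between genotypes. Sesn1 had 16.3, 18.7, 22.0 and 14.1 CPM and Sesn2 had between 51.9 and 87.2, with log2 fold changes of 0.04 and -0.12. Tigar, a fructose bisphosphatase that limits glycolysis, had between 15.0 and 20.1 CPM and a log2 fold change of -0.02. Epha2, an ephrin receptor kinase, had 152, 205, 170 and 287 CPM and a log2 fold change of 0.36 with a 95% interval from -0.53 to 1.24.

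**Figure D2:**
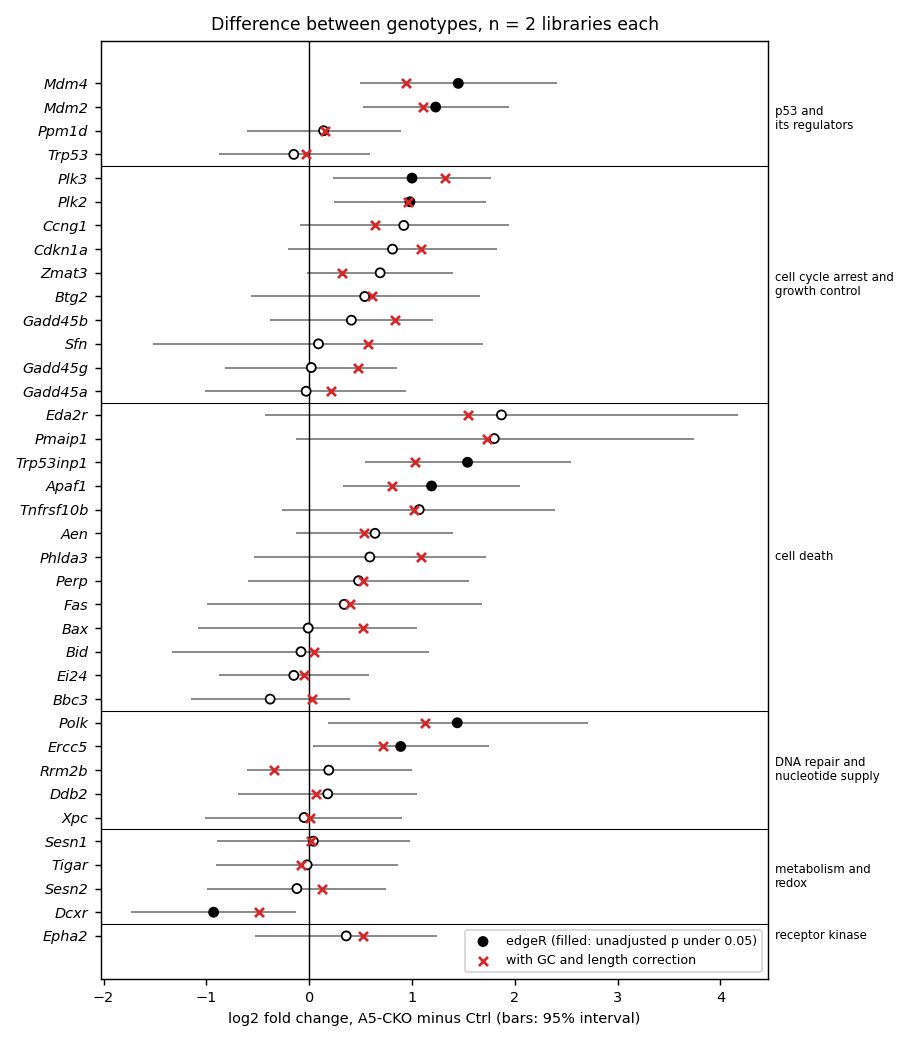
Log2 fold change of A5-CKO over Ctrl for the 37 genes by role. Circles are edgeR estimates with 95% intervals (filled at an unadjusted p under 0.05) and crosses are estimates with the GC content and length correction. The intervals of 8 genes lie wholly above 0 and that of Dcxr wholly below 0.

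The Ctrl libraries differed from each other in many of the 37 genes. Ctrl 2 was the lowest library for 18 of the 37 genes, against 25.9% of all genes tested, and A5-CKO 2 was the highest for 16, against 20.2% of all genes. Ctrl 2 had less than 0.5 times the level of Ctrl 1 for 11 genes, which were Cdkn1a, Ccng1, Phlda3, Bax, Pmaip1, Fas, Eda2r, Tnfrsf10b, Sfn, Polk and Trp53inp1, and more than 2 times for 0. Of all genes with at least 10 counts in every library, 8.52% were lower in Ctrl 2 by as much. The A5-CKO libraries differed by as much for 3 of the 37 genes, Mdm4 and Btg2 lower in A5-CKO 2 and Perp higher. Relative to each gene's own mean on the log2 scale, the median of the 37 genes was lowest in Ctrl 2 at -0.49, followed by Ctrl 1 at -0.05, A5-CKO 2 at 0.27 and A5-CKO 1 at 0.28. Of the 12 transitional cell markers, 10 were higher and 2 lower by the fitted value (49.1% of all genes were higher). These markers also summed to their lowest level in Ctrl 2, with 5340, 3390, 3790 and 4830 CPM. Among them Cldn4 differed most between the Ctrl libraries, with 297, 20.3, 141 and 471 CPM. Krt8 had 832, 537, 537 and 836 CPM, and Cldn18 was highest in Ctrl 2, with 1080, 1700, 1410 and 1050. None of the 12 was at 0 in any library. The fibroblast, macrophage and plasma cell sums given above were lower in Ctrl 2 than in Ctrl 1 too, while the endothelial sum was higher in Ctrl 2. The part of any of these cells in the values of the 37 genes was not tested.

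**Figure D3:**
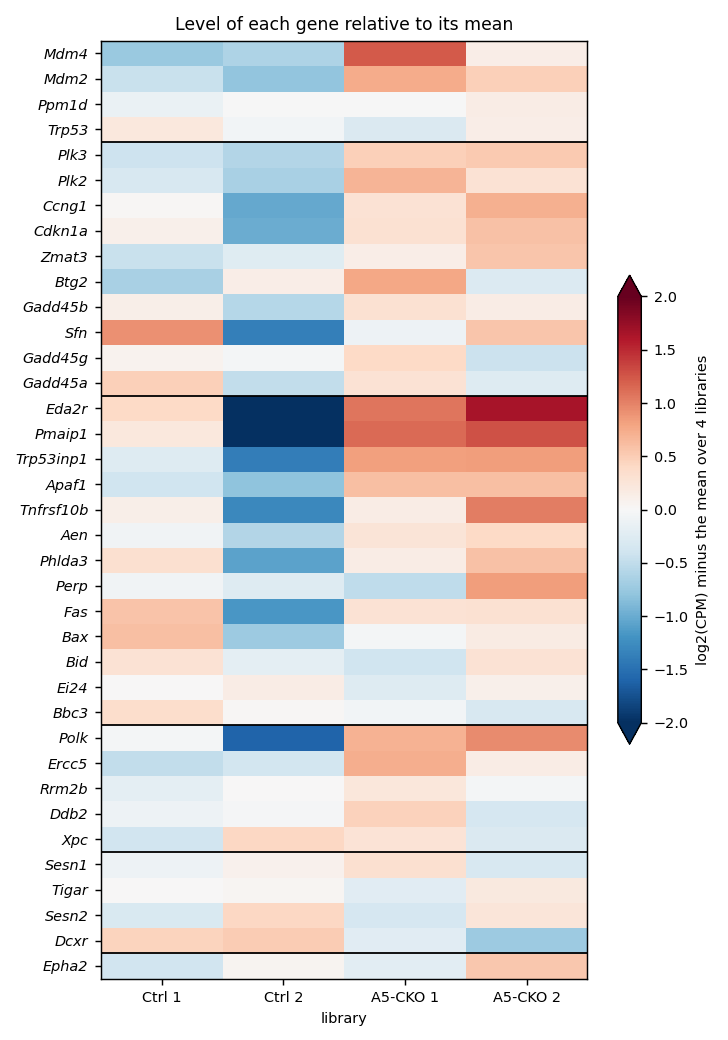
Log2(CPM) of each of the 37 genes in each library minus the gene's mean over the 4 libraries, by role (colour scale limited to 2 in either direction). The Ctrl 2 column is darkest blue for Eda2r, Pmaip1, Polk, Trp53inp1 and Sfn, while Mdm2, Mdm4, Plk2 and Plk3 are blue in both Ctrl columns.

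The number of the 37 genes with an unadjusted p under 0.05 in edgeR depended on the Ctrl libraries. It was 18 of 37 without Ctrl 1 (all higher in A5-CKO, where 5.85% of all genes tested were) and 4 of 37 without Ctrl 2 (3 higher, where 2.71% of all genes were). It was 4 without A5-CKO 1 (2.75% of all genes higher) and 6 without A5-CKO 2 (4.94%), all higher. The lone library of a genotype was assumed in these fits to vary like the others. The number higher in A5-CKO stayed between 26 and 32 of 37 in the same fits. Mdm2 and Trp53inp1 were the 2 genes with an unadjusted p under 0.05 in each of them, with log2 fold changes from 1.05 to 1.48 and from 1.06 to 2.30.

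**Figure D4:**
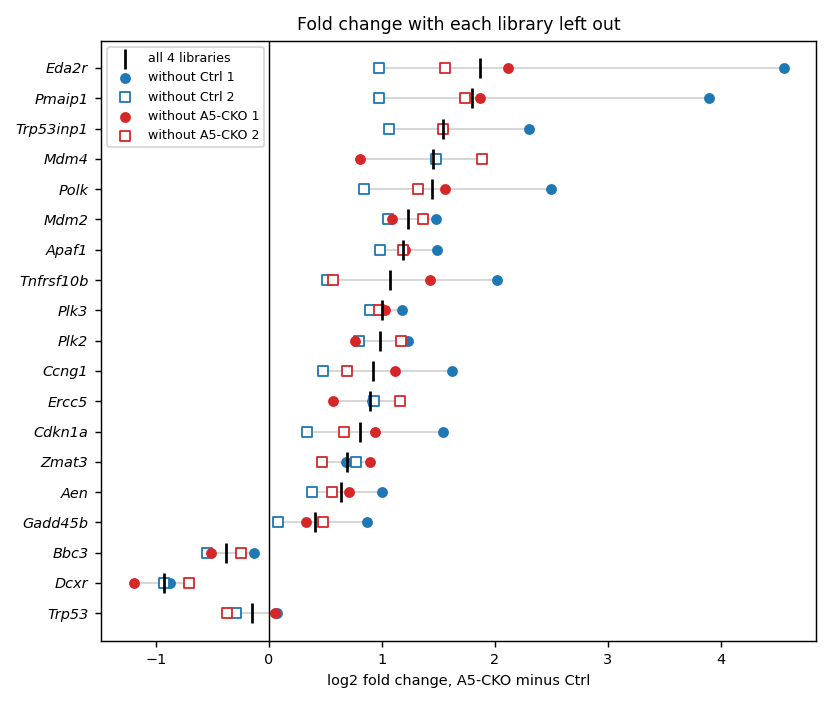
Log2 fold change of the 18 genes whose libraries separated by genotype, and of Trp53, with all 4 libraries (black bars) and with each library left out (coloured points). Eda2r, Pmaip1 and Polk move far right without Ctrl 1, to 4.56, 3.90 and 2.50, while the points of Mdm2, Plk2, Plk3 and Apaf1 stay close together.

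Levels of different genes were compared per kilobase of the longest annotated transcript. On this scale, as means over the 4 libraries, Dcxr was highest at 368 CPM per kilobase, followed by Btg2 at 180, Cdkn1a at 144 and Sfn at 112. Bax, Ei24, Phlda3, Gadd45b, Ccng1 and Gadd45g lay between 77.7 and 84.7. Mdm2 had 24.7, Trp53 15.0, Mdm4 10.1 and Ppm1d 10.4 CPM per kilobase. The lowest were Apaf1 at 3.13, Bid at 2.57 and Eda2r at 1.75.

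Other genes of the p53 pathway and of DNA repair were mixed. The counts in these lists stand against 4.48% of all genes tested that were higher, and 4.71% that were lower, at an unadjusted p under 0.05. Of 35 further p53 target genes tested, 7 had an unadjusted p under 0.05 and were higher, 1 was lower, and their median log2 fold change was -0.02. Those with the smallest p were Zfp365, which protects stalled replication forks, with 5.26, 3.67, 18.3 and 20.2 CPM and a log2 fold change of 2.11, and the thiamine transporter Slc19a2 with 14.4, 7.85, 26.3 and 39.0 CPM and 1.55. Pidd1, the scaffold of the PIDDosome, had 3.73, 3.72, 10.5 and 12.1 CPM and a log2 fold change of 1.60, and Ckap2, a mitotic spindle protein, had 1.93. Zfp365 had adjusted p-values from 0.00426 to 0.899 across the fits, the lowest in DESeq2, and 0.528 in edgeR.

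Of 26 activators, kinases and cofactors of p53, 17 were higher and 9 lower by the fitted value (49.1% of all genes were higher). The median log2 fold change of these 26 genes was 0.19, or 0.01 with the GC content and length correction described below. An unadjusted p under 0.05 was found for 2 of them. These were Topbp1, an activator of the kinase ATR, at a log2 fold change of 0.96, and Atr itself at 1.23. Of 10 inhibitors and ubiquitin ligases, Trim24 at 1.11 and Sirt1, a deacetylase of p53, at 0.94 had an unadjusted p under 0.05. The median of these 10 genes was 0.40, or 0.10 with the correction. Bleomycin hydrolase, Blmh, which inactivates the drug, had 59.8 and 59.4 CPM in Ctrl and was lower in both A5-CKO libraries, with 42.6 CPM in A5-CKO 2 and a log2 fold change of -0.36 with an adjusted p of 0.657 in edgeR. Of the p53 family, Trp63 had 1.45 CPM or less in every library and Trp73 had too few counts to be tested.

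Double-strand break repair had a median log2 fold change of 0.48 over 25 genes tested, or 0.26 with the GC content and length correction described below. Without the correction, 4 were at an unadjusted p under 0.05, all higher. These were the nuclease Dclre1c at 1.62, and Polq at 2.10, Brca2 at 1.58, and Xrcc3 with 1.36, 3.37, 6.61 and 6.84 CPM, of which Polq had at most 1.62 CPM in a library. Nucleotide excision repair had a median of -0.12 over 20 genes, with 2 higher at an unadjusted p under 0.05, the transcription-coupled repair factors Uvssa at 1.69 and Ercc6 at 0.97. Base excision and single-strand break repair had a median of -0.05 over 16 genes. The 21 apoptosis regulators outside the 37 genes had a median of -0.02, with 0 higher and 2 lower at an unadjusted p under 0.05, the BH3-only gene Bmf at -1.36 and the death receptor adaptor Fadd at -0.87. Of 20 cell cycle genes, 18 were higher and 2 lower by the fitted value, with a median of 0.56 (49.1% of all genes were higher). Mki67 alone was higher in both A5-CKO libraries (20.3% of all genes), and it alone had an unadjusted p under 0.05, at 1.67. Of the 17 early response genes tested, 3 were higher at an unadjusted p under 0.05, Klf6 at 1.64, Atf3 at 2.41 and Fosb at 2.22, and without A5-CKO 1 these were 0.69, 0.16 and -0.09. The adjusted p of each gene named here was at least 0.528 in edgeR.

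**Figure D5:**
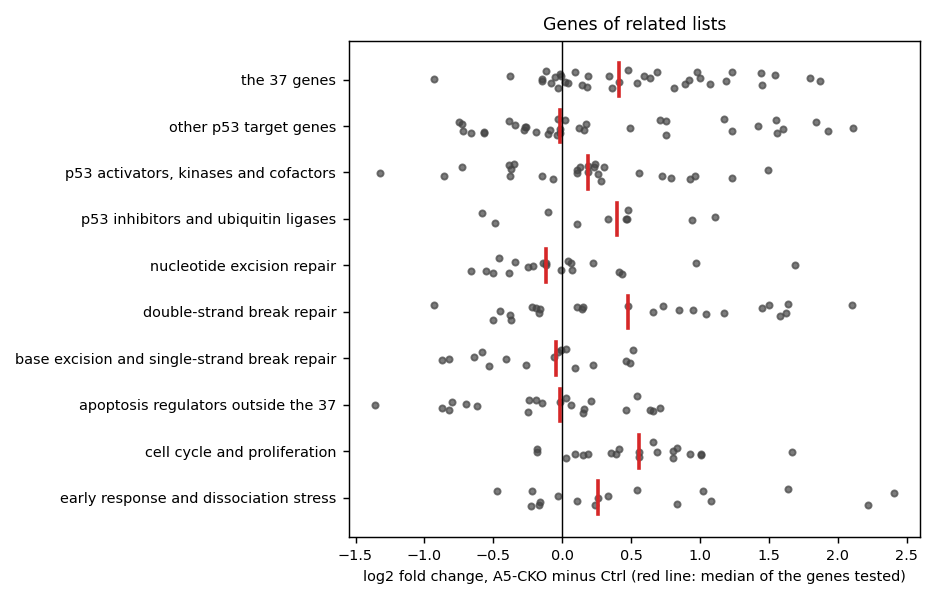
Log2 fold change of each tested gene (grey points, spread vertically at random) in the 37 genes described here and in 9 related lists, with the median of each list as a red line. The 37 genes, double-strand break repair and cell cycle lists have medians of 0.41, 0.48 and 0.56, while further p53 targets and apoptosis regulators have medians of -0.02. With the GC content and length correction, which is not drawn, the former medians are 0.52, 0.26 and 0.57.

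Transcript length and GC content moved with the difference between genotypes over all genes, so the 37 genes were also fitted with a correction for both. Genes are not independent replicates, and over 15436 of them Spearman's rho of the log2 fold change was 0.29 with length and -0.36 with GC content. The 37 genes were close to all genes in both, with a median length of 2899 against 3164 bases and a median GC content of 49.7% against 49.8%. With the correction, 32 were higher and 5 lower in A5-CKO and the median was 0.52. There were 8 genes at an unadjusted p under 0.05, all higher, where 2.44% of all genes were higher and 4.93% lower. With the replicate number as a block there were also 8, all higher, where 2.38% of all genes were higher and 2.15% lower. The 8 genes with the correction were Cdkn1a, Mdm2, Mdm4, Phlda3, Gadd45b, Plk2, Plk3 and Trp53inp1, of which 5 were also among the 9 without the correction. In this fit the log2 fold change was 1.09 for Cdkn1a, 1.32 for Plk3, 1.11 for Mdm2, 0.94 for Mdm4 and 1.03 for Trp53inp1. Apaf1, Polk, Ercc5 and Dcxr had log2 fold changes of 0.81, 1.13, 0.72 and -0.49. None of these had an unadjusted p under 0.05 by edgeR with the correction.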

How the data were processed

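Total RNA of sorted AT2 cells was sequenced as paired-end RNA-seq. According to the study's methods and the submitters' processing notes, the authors trimmed reads with Trim Galore 0.6.10, removed ribosomal RNA reads, aligned to mm10.p6 with HISAT2 2.2.1, removed duplicates with sambamba and deposited whole read counts per gene from featureCounts 2.0.3 without normalization. The counting is described for the m6A libraries and was taken as that of the RNA-seq. Its strand setting is not given in the sources used here, so reads of overlapping genes on opposite strands are uncertain. Removal of duplicates compresses abundant transcripts.

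Counts were analysed with edgeR 4.0.16 in R 4.3.3 (TMM factors of 0.860 to 1.13, filterByExpr, estimateDisp, glmQLFit, glmQLFTest) with Benjamini-Hochberg adjustment over 16661 genes, and the common dispersion was 0.173. CPM were computed on TMM-scaled library sizes. Each standard error was taken as |log2 fold change| over √F. Alternatives were other scaling factors, DESeq2 1.42.0, limma voom (limma 3.58.1), a robust fit, other filters, patch copies summed, the replicate number as a block, each library left out, and per-library splines (4 degrees of freedom each) on GC content and length of the longest GENCODE M21 transcript. The fits were tested on simulated data. The 2 libraries of a genotype differed beyond counting noise (chi-square over its degrees of freedom 120 and 111), so neither is a library deposited more than once, and the labels number them as replicates. Pairs across genotypes gave 99.1 to 157, the lowest for Ctrl 1 and A5-CKO 2. Whether they came from separate mice is not given in the sources used here.

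The 37 genes and all lists were chosen with earlier results of these data known. Values per library are given for Trp53, Cdkn1a and Mdm2, for genes with an unadjusted p under 0.05 or with libraries separated by genotype, and for the extremes of fold change. Other members given by library, and Sftpc, Cldn4, Cldn18 and Krt8, were named after their values were seen. Of related lists, at most 4 genes with the smallest p are named. A gene that belongs to the related lists is not reported here. Coordinates come from RefSeq annotation of GRCm38.p6, the build of the deposited counts.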

Additional observations from a re-analysis of the deposited data

How the results depend on the processing

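With 2 libraries a genotype and a common dispersion of 0.173, small differences could not be detected. Over all genes, DESeq2 at its default filtering gave 59 genes at an adjusted p under 0.05, and 55 over the genes that edgeR tested, where edgeR gave 0. Leaving out a library gave 0 to 1 (1 without A5-CKO 2). At an unadjusted p under 0.05, edgeR gave 1530 genes, and 738 to 1634 with a library left out. The 37 genes had 9 at that threshold and 4 to 18 with a library left out, 18 without Ctrl 1 and 4 without Ctrl 2 or A5-CKO 1. Their median of 0.41 was 0.71 with total counts and 0.34 to 0.87 with a library left out. The Alkbh5 log2 fold change passed the adjusted threshold in DESeq2, at -2.02 by default and -2.01 on edgeR's genes, and ran from -2.60 to -1.56 with a library left out. Same-numbered libraries deviated oppositely (correlation -0.36), and no label ties a number to a shared litter or day. With the replicate number as a block, 754 genes and 8 of the 37 had an unadjusted p under 0.05, with 0 adjusted. A crossed block, chosen after seeing the data, gave 2582 and 15 unadjusted and 230 and 5 adjusted.

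Some log2 fold changes changed sign. With total counts Trp53 had 0.17, Bax 0.28, Gadd45a 0.27, Sesn2 0.22, Ei24 0.18, Xpc 0.28, Tigar 0.29 and Bid 0.23. With RLE factors, and with DESeq2 on the same genes, Bax had 0.02, Gadd45a 0.01 and Tigar 0.02, and DESeq2 with default filtering gave Bax 0.01 and Tigar 0.01. Upper-quartile factors gave Bax 0.07, Gadd45a 0.05, Xpc 0.05, Tigar 0.07 and Bid 0.01. With limma voom, and with the replicate block, Bax had 0.13, Gadd45a 0.02 and Gadd45g -0.04. Without a filter Gadd45g had -0.02, and with at least 10 counts in every library Bax had 0.03, Gadd45a 0.01 and Tigar 0.02. The GC content and length correction gave Bax 0.52, Bbc3 0.03, Gadd45a 0.21, Sesn2 0.12, Rrm2b -0.34, Xpc 0.01 and Bid 0.05. With a library left out the values ran for Bax from -0.55 to 0.88, Bid from -0.46 to 0.27, Btg2 from -0.07 to 0.97, Ddb2 from -0.27 to 0.53, Ei24 from -0.33 to 0.02, Epha2 from -0.07 to 0.68, Fas from -0.30 to 1.54, Fosb from -0.09 to 3.07, Gadd45a from -0.46 to 0.61, Gadd45g from -0.45 to 0.37, Perp from -0.35 to 1.00, Sesn1 from -0.31 to 0.33, Sesn2 from -0.43 to 0.27, Sfn from -0.66 to 1.73, Tigar from -0.25 to 0.17, Trp53 from -0.37 to 0.07 and Xpc from -0.36 to 0.37. The cause was not tested.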
